A study of Homo sapiens with 6 samples.

Results

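Aldo-keto reductases use NADPH to reduce aldehydes and ketones, steroids and prostaglandins among them. The AKR1C enzymes are close paralogues that act as hydroxysteroid dehydrogenases: AKR1C3 converts weak androgens to testosterone and makes prostaglandin F from prostaglandins D and H, AKR1C2 inactivates dihydrotestosterone, and AKR1C4 is known mainly as a liver enzyme of steroid and bile acid metabolism. The AKR7A enzymes reduce reactive aldehydes such as the dialdehyde of aflatoxin. The 9 genes (AKR1A1, AKR1B1, AKR1B10, AKR1C1, AKR1C2, AKR1C3, AKR1C4, AKR7A2 and AKR7A3) were chosen by symbol, and their probes were selected on detection: a probe counted if at least 3 of the 6 arrays gave it a detection p-value under 0.05. The detection p-value says how far a probe's brightness exceeded the array's background. The platform annotation used here paired 1 such probe each with 5 of the 9 genes, of 20348 probes kept from 47315 in all. The other 4, AKR1A1 (aldehyde reductase), AKR1B1 (aldose reductase), AKR1B10 and AKR1C1, had no probe listed under their symbol, and their levels are not analysed here.

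RNA was measured on Illumina bead arrays in SN12C, a human renal carcinoma cell line used in a study of tumor cells deficient in NF2. The control arm carried the pTripz vector and the knockdown arm carried pTripz YAPsh and pTripz TAZsh, and both carried GFP-luc. pTripz is a vector from which doxycycline induces the hairpin. Both arms received doxycycline for 3 days or longer, were grown in RPMI with 10% serum, and spent the last 24 hours without serum, so the labels give the hairpins as the only difference between the arms. Each arm had 3 arrays, which the series calls technical repeats of 1 cell line, so each p-value measures the spread between arrays and not between cultures.

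The median raw intensity was 87.6 to 102.4 per array, and 41.6% to 44.3% of the probes were detected. Across probes, which are not independent replicates, the lowest correlation of log2 values within an arm was 0.981 and the highest between arms 0.962. YAP1, 1 of the targeted genes, fell by 1.51 ± 0.193 (SE) on the log2 scale (adjusted p = 0.000607, limma over all probes), while no kept probe was listed for WWTR1, the gene of TAZ. Among markers of renal epithelium and renal carcinoma, KRT8, KRT18 and PAX8 were detected on all 6 arrays, EPCAM on 3, and PAX2, LHX1, CDH6 and CA9 had no kept probe listed. Their summed linear level was 1324 to 1495 on the control arrays and 709.9 to 834.8 on the knockdown arrays, and most of it was KRT8, the only one called (log2 mean 10.27 in control and 9.20 in knockdown cells). The log2 changes of the others were -0.36 for KRT18 and 0.28 for both PAX8 and EPCAM. Of the 5 leukocyte markers CD14 alone had a kept probe listed (162.4 to 183.0 in control and 265.5 to 323.4 in knockdown cells). Of 7 fibroblast markers 3 had one listed, with a sum of 956.0 to 1060 and 567.4 to 628.5, and of 5 endothelial markers 0. The fibroblast sum was mostly THY1 (log2 mean 9.92 and 9.09); COL1A1 was detected on 3 control and 0 knockdown arrays, and LUM on 0 control and 3 knockdown arrays. The part of these shifts in the results below was not tested.

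AKR1C3 had the largest difference of the 5 measured members: its probe was at background in control cells and bright in knockdown cells. Raw intensity was 87.5, 102.3 and 92.1 on control arrays 1 to 3, and 520.2, 331.9 and 347.5 on knockdown arrays 1 to 3. The control readings lay at the median of their own arrays (1.00, 1.00 and 1.01 times it), and the knockdown readings were 5.27, 3.63 and 3.84 times the median of theirs. After background correction and normalization the log2 intensities were 4.41, 4.41 and 4.48 in control cells and 8.49, 8.19 and 8.40 in knockdown cells. No control array detected the probe, whose detection p-values there were 0.142, 0.114 and 0.0896, and every knockdown array did. With the background correction used here, the arm means therefore put AKR1C3 at least 14.1-fold higher in knockdown cells. This bound sets the knockdown mean of 8.36 ± 0.150 (SD, n = 3) against the lowest detected value on each control array. It makes no allowance for the spread between arrays. The fitted log2 difference was 3.92, which is no exact size because the control readings were at background, and without background correction it was 1.93 (3.80-fold). The rise of AKR1C3 drew attention to the family, so its values are a description without a test.

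The probe of AKR1C4 showed the same pattern of detection, with a smaller difference. Raw intensities were 79.6, 100.3 and 90.0 in control cells and 161.4, 125.0 and 130.2 in knockdown cells. The log2 values were 4.17, 4.36 and 4.37 against 6.05, 5.90 and 6.12. The arm means were 4.30 ± 0.111 and 6.02 ± 0.112 (SD, n = 3 each). The probe was detected on 0 control and 3 knockdown arrays. With the background correction used here, the arm means put AKR1C4 at least 2.79-fold higher in knockdown cells. This bound too makes no allowance for the spread between arrays. Without background correction the fitted difference was 1.46-fold, against 3.30-fold with it. AKR1C4 passed the detection rule only through the arm in which it was high, and it is given without a test for that reason. Among 6 hepatocyte markers ALB alone had a kept probe, at 4.69 ± 0.212 in control and 4.71 ± 0.113 in knockdown cells (SD, n = 3 each), while APOA1, SERPINA1, TTR, FGB and AHSG had none listed.

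AKR1C2 stayed at the edge of detection. Its log2 intensity was 4.26, 4.21 and 4.62 in control cells and 4.56, 4.86 and 4.63 in knockdown cells. Control array 3 lay among the knockdown arrays, so the arms overlapped. The change of 0.32 ± 0.146 (SE; 95% interval -0.016 to 0.65) did not pass the test (adjusted p = 0.136, limma). That interval reaches from no change to a 1.57-fold rise. It comes from readings at the edge of detection, so it is no limit on the change in RNA. Without background correction the log2 change was 0.10 (1.07-fold). AKR1C3 and AKR1C4 were detected on 3 arrays, the fewest the rule admits, and AKR1C2 on 4, with detection p-values of 0.0325 on control array 3 and 0.0338, 0.00779 and 0.0286 on the knockdown arrays. The annotation covers kept probes only, so no member just outside the rule can be shown.

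**Figure D1:**
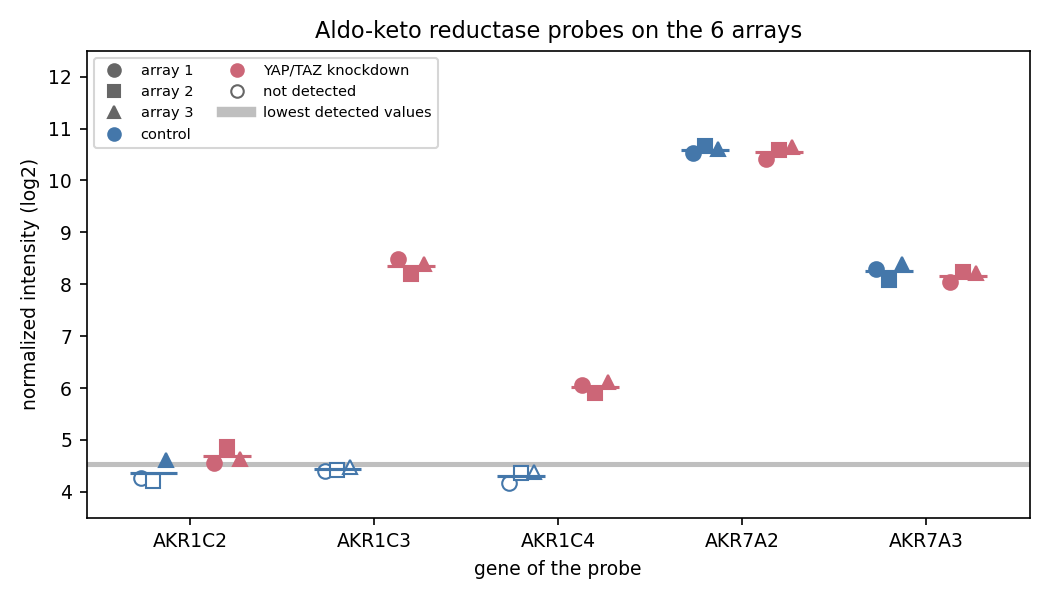
Normalized log2 intensity of the 5 family probes on each array, with open symbols for arrays that did not detect the probe, horizontal lines for the mean of the 3 arrays of an arm, and a grey band over the lowest detected values of the 6 arrays. AKR1C3 and AKR1C4 rise from below the band in control cells to means of 8.36 and 6.02 in knockdown cells, AKR1C2 crosses it with arm means of 4.37 and 4.68, and for both AKR7A probes the arms overlap.

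The AKR7A reductases were well above background in both arms and did not differ beyond the spread between arrays. AKR7A2, a broad aldehyde reductase, gave log2 intensities of 10.52, 10.67 and 10.60 in control cells and 10.41, 10.59 and 10.65 in knockdown cells. The change was -0.045 ± 0.114 (SE; 95% interval -0.31 to 0.21; adjusted p = 0.802, limma), so a rise above 1.16-fold lies outside the interval. AKR7A3, its paralogue known for reducing aflatoxin dialdehyde, gave 8.29, 8.07 and 8.39 against 8.05, 8.24 and 8.21. The arms interleaved, with a change of -0.088 ± 0.124 (SE; 95% interval -0.37 to 0.20; adjusted p = 0.641, limma).

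In all, 0 of the 3 tested members (AKR1C2, AKR7A2 and AKR7A3) passed the limma threshold and 0 had an unadjusted p under 0.05, where 32.3% of all kept probes passed it (15.8% higher and 16.5% lower). In 2 of the 5 probes (AKR1C3 and AKR1C4) the arms were without overlap, as in 45.5% of all probes. The state of AKR1C3 and AKR1C4, detected on 3 knockdown and 0 control arrays, was shared by 265 probes, 1.3% of those kept. The detection rule used the same arrays, so nothing is read from that count.

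**Figure D2:**
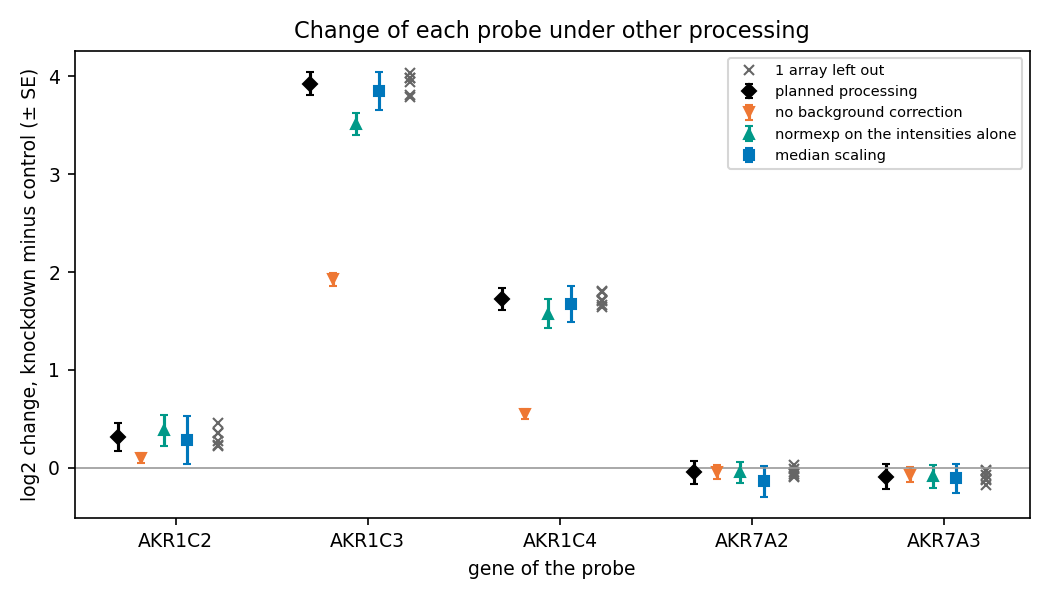
Log2 change of each family probe (knockdown minus control, bars ± SE) under the planned processing, without background correction, with normexp on the intensities alone and with median scaling, and with 1 array left out at a time (crosses). AKR1C3 falls from 3.92 to 1.93 and AKR1C4 from 1.72 to 0.55 without background correction, and the AKR7A probes stay near 0 in each setting shown.

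The AKR1C genes lie next to each other on chromosome 10, so their promoters and neighbours were set beside the values. Promoters of 250 bases before to 50 bases after a transcript start (RefSeq, GRCh38.p14) were listed for 8 of the 9 genes, in 11 entries. The 5 below are shown because they belong to the AKR1C members with a probe and to AKR7A2, which was measured well above background and not called. Capitals mark matches to motifs searched on both strands: GGAATG, the core bound by the TEAD partners of YAP and TAZ, TGACNNNGC, the core of the antioxidant response element bound by NRF2, and TGANTCA, the AP-1 element.
AKR1C2, minus strand of chr10:5003808-5004107: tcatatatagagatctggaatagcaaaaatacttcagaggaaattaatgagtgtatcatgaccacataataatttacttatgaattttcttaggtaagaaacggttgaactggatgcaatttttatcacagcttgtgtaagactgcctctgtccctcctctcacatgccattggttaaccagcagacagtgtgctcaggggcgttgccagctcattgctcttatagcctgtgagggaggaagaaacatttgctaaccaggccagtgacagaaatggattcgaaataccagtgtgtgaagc
AKR1C3 upstream start, plus strand of chr10:5048531-5048830: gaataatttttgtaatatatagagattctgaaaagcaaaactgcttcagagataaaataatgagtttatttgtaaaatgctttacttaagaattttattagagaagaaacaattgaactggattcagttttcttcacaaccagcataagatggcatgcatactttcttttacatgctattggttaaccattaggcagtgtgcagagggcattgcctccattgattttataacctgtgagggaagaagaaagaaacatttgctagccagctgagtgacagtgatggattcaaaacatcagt
AKR1C3 downstream start, plus strand of chr10:5094164-5094463: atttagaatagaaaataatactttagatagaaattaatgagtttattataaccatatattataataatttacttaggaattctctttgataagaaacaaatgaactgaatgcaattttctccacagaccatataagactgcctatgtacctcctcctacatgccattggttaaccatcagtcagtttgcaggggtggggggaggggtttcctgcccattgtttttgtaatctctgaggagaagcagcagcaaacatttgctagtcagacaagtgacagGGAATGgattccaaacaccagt
AKR1C4, plus strand of chr10:5196587-5196886: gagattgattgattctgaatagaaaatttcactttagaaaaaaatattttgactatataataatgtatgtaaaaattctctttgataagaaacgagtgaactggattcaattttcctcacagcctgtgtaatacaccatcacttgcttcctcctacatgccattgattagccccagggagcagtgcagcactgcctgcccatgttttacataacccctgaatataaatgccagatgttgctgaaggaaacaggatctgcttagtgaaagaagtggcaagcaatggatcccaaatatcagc
AKR7A2, minus strand of chr1:19312095-19312394: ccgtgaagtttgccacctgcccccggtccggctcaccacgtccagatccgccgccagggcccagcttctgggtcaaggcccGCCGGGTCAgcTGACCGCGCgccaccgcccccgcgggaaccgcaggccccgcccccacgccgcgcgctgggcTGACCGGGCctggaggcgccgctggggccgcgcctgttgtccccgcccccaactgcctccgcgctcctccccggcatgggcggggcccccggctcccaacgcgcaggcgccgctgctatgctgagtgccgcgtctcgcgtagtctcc

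Over all 35116 listed promoters, GGAATG was found in 14.0%, TGACNNNGC in 13.3% and TGANTCA in 7.71%. Among the family GGAATG matched once, beginning at base 29 of the transcript from the downstream AKR1C3 start. TGACNNNGC had 3 matches in each of the 2 AKR7A2 entries, at -169, -158 and -97 from the start in the entry shown, and none of them overlapped another motif. The remaining 8 entries held none of the 3 motifs in these windows. In a global alignment the AKR1C1 and AKR1C2 promoters were 93.5% identical, and the AKR1C2 promoter matched those of AKR1C3 at 69.4% (upstream) and 70.1% (downstream). The AKR1C4 promoter was 60.7% and 62.0% identical to the same AKR1C3 promoters and 59.3% identical to that of AKR1C2. Close paralogues may share a probe, and the identity of their promoters does not show whether they do. The probe sequences were not analysed here, so how far the AKR1C4 reading comes from AKR1C3 RNA, or the AKR1C3 reading from AKR1C1 or AKR1C2 RNA, was not tested.

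No measured neighbour of the cluster was called higher. Of the 21 protein-coding genes within 10 places of it or inside it, 10 had a kept probe, and 0 of these were higher, 5 lower and 5 not called, against 20.3% higher and 19.5% lower among all 11646 genes. Their log2 changes ran from -1.61 to 0.32. The nearest measured neighbours were KLF6, a zinc finger transcription factor, at 0.079 (adjusted p = 0.697, limma), and NET1, an exchange factor for RhoA, which fell by 0.88 on the log2 scale (adjusted p = 0.000823, limma). Around AKR7A2 and AKR7A3 on chromosome 1, 11 of 20 neighbours had a kept probe, 2 higher and 1 lower.

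**Figure D3:**
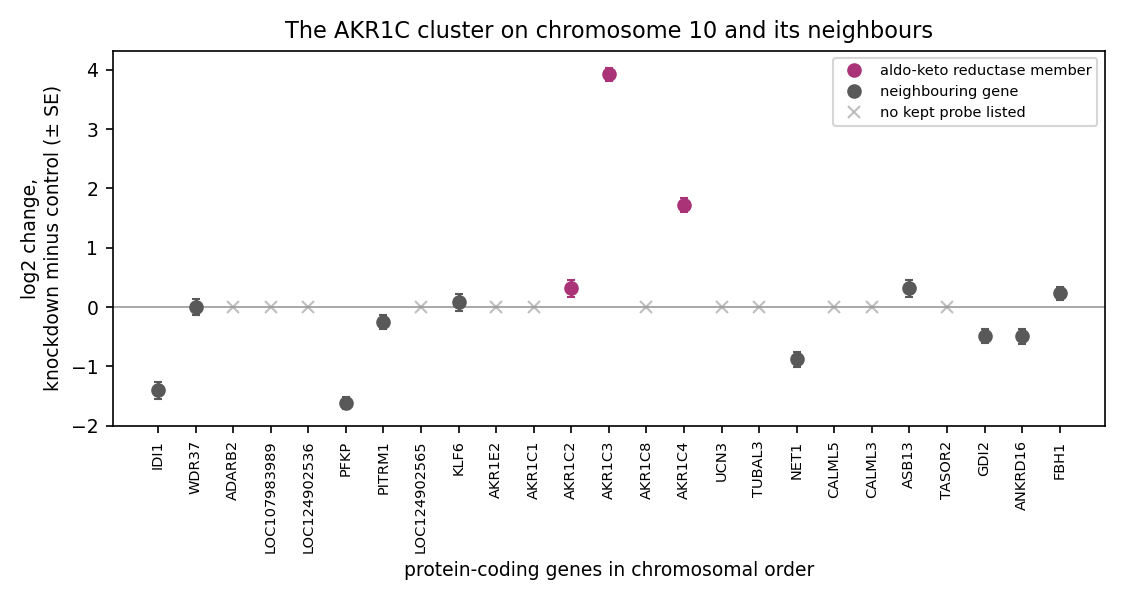
Log2 change (knockdown minus control, bars ± SE) of genes in their order on chromosome 10, with family members in purple, neighbours in grey and crosses at 0 for genes with no kept probe listed. AKR1C3 at 3.92 and AKR1C4 at 1.72 stand above their measured neighbours, which run from -1.61 to 0.32.

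The genes whose pattern over the 6 arrays lay closest to that of AKR1C3, by Euclidean distance between centred log2 values, were S100A4 (distance 0.278), AGTR1 (0.532), PCOLCE (0.919), TMEFF2 (0.998) and GASK1B (1.01). They share the arrays and the size of the difference between arms, with log2 differences of 3.13 to 3.83. The control values of AKR1C3 in this measure are background readings, and AGTR1 was detected on 2 of the 3 control arrays. The ranking covered 11401 genes and left out symbols that begin with LOC, KIAA, FLJ, FAM or MGC or contain orf.

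Other members of the superfamily had few listed probes. Of 9 such genes 2 had a kept probe, and AKR1B15 and AKR1E2 did not. The probe listed as AKR1D1, a liver enzyme that reduces the steroid ring, read 12.70, 11.55 and 11.47 in control cells and 13.03, 12.18 and 11.85 in knockdown cells on the log2 scale. Array 1 was the brightest in both arms, and the arms overlapped. The sequence of this probe was not analysed here, and whether its reading comes from AKR1D1 RNA was not tested. The change of 0.45 ± 0.377 (SE) did not pass the test (adjusted p = 0.411, limma over all probes), but with the array number as a replicate block its SE was 0.112 and it passed (adjusted p = 0.0129, within 0.0129 to 0.840 over the settings tried). The difference between arrays of the same number was 0.34, 0.64 and 0.38. KCNAB1, a beta subunit of voltage-gated potassium channels, fell from 6.25 ± 0.104 to 4.46 ± 0.417 (SD, n = 3 each; adjusted p = 0.000159, limma over genes), 3.45-fold with and 1.53-fold without background correction. It was detected on 3 control arrays and 1 knockdown array.

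Genes of steroid and prostaglandin metabolism, the pathways AKR1C3 works in, moved in both directions. Of 21 measured genes on a list of 46, 5 rose, 7 fell and 9 did not pass, against 39.8% of all genes called. The median log2 change was -0.14 (0.032 over all genes). HSD17B6 was among the 7 and was detected on 3 control and 0 knockdown arrays. It passed the detection rule only through the arm in which it was high, so nothing is read from its call. With detection required on all 6 arrays, 18 genes of the list remained, of which 4 were higher and 5 lower, where 37.6% of all probes were called. The genes that the filter removed, HPGD and HSD17B6 among them, were not fitted. HSD17B1, which makes estradiol, rose 4.88-fold, from 4.83 ± 0.167 to 7.12 ± 0.0892 (SD, n = 3 each; adjusted p = 3e-06, limma). HPGD, which inactivates prostaglandins, rose 3.21-fold, from 4.40 ± 0.175 to 6.08 ± 0.116 (SD, n = 3 each; adjusted p = 2.06e-05, limma), and was detected on 1 of the 3 control arrays. HSD17B11, a dehydrogenase of lipid droplets, rose by 1.12 on the log2 scale. PPARG, a nuclear receptor for fatty acids and prostaglandin derivatives, fell 9.89-fold, from 7.99 ± 0.140 to 4.69 ± 0.130 (SD, n = 3 each; adjusted p = 5.64e-07, limma), with -1.56 on the log2 scale from its other probe. PTGER4, a receptor for prostaglandin E, fell 2.65-fold. PTGES, a prostaglandin E synthase, was at -0.22 (adjusted p = 0.275, limma) and PTGS2, the inducible cyclooxygenase, had no kept probe listed. Without background correction the folds were 1.94 for HSD17B1, 1.45 for HPGD, 2.99 for PPARG and 1.61 for PTGER4. Without control array 3 or without knockdown array 1, 4 genes of the list were called lower. The share of all probes called was 22.8% and 29.0% in these settings, against 32.3% with all arrays.

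Other carbonyl and aldehyde enzymes were also mixed, with 5 of 22 measured genes higher, 7 lower and 10 not called, and a median of -0.045 (over all genes 20.3% higher and 19.5% lower). With median scaling over all probes, chosen after seeing the data, 2 were higher and 3 lower, where 7.64% of all probes were called. DHRS3, which reduces retinal to retinol, rose 4.48-fold (log2 change 2.16 ± 0.102, SE), and ALDH3B1, an aldehyde dehydrogenase for lipid aldehydes, 2.98-fold. CBR3, a carbonyl reductase, fell 2.45-fold and ALDH1B1, a mitochondrial aldehyde dehydrogenase, 2.25-fold (1.56-fold and 1.33-fold without background correction). Without control array 3 or without knockdown array 1, 4 genes of this list were called lower, where 22.8% and 29.0% of all probes were called.

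AKR1C genes are known targets of NRF2, the transcription factor of the antioxidant response. Other genes of the NRF2 pathway and its targets were split, and a part of NRF2 in the AKR1C values was not tested. Of 27 measured genes on a list of 38, 8 rose, 8 fell and 11 did not pass, with a median of 0.083. Over all genes 20.3% were higher and 19.5% lower. The list holds parts of the pathway as well as targets, and KEAP1 and MAFG are among the 8 that rose. With median scaling over all probes 3 genes of the list were higher and 1 lower, where 7.64% of all probes were called. EPHX1, the microsomal epoxide hydrolase, rose 5.22-fold, from 5.87 ± 0.283 to 8.25 ± 0.151 (SD, n = 3 each; adjusted p = 1.04e-05, limma), and ABCC3, an exporter of conjugates, 3.77-fold. These were 2.66-fold and 1.79-fold without background correction. MGST1, a glutathione transferase, fell by 1.05 on the log2 scale on its brightest probe, 2 of its 3 probes were called, and the smallest change among them was -0.40. NFE2L2, which encodes NRF2, was at 0.22 (adjusted p = 0.12, limma), or 0.20 (adjusted p = 0.0276) without background correction, within 0.0276 to 0.826 over the settings tried. KEAP1, which holds NRF2 back, rose by 0.91 on the log2 scale. NQO1, a quinone reductase widely used as a readout of NRF2, rose by 0.55 on its brightest probe, while its other probe gave 0.075, and it did not pass with the mean of its probes (adjusted p = 0.076, limma, within 0.00025 to 0.362 over the settings tried). GCLM, a subunit of the first enzyme of glutathione synthesis, fell by 0.92 on its brightest probe, and its other probe gave 0.028.

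**Figure D4:**
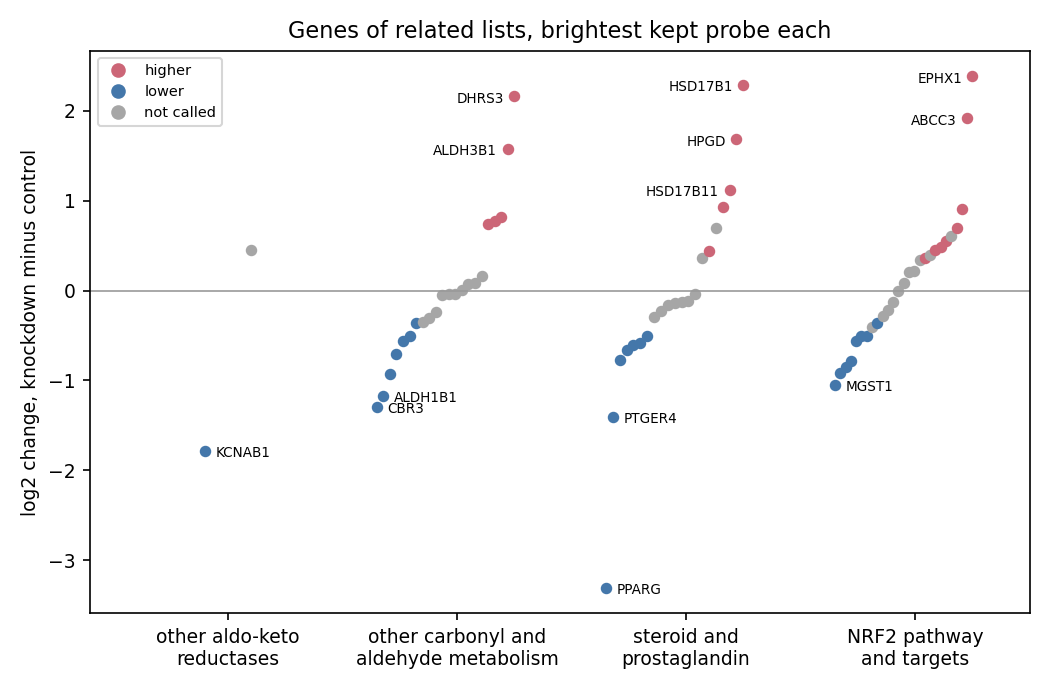
Log2 change (knockdown minus control) of each measured gene on the lists of other aldo-keto reductases, carbonyl and aldehyde enzymes, steroid and prostaglandin genes, and NRF2 pathway genes, ordered by change within a list and coloured by the limma call. Each of the last 3 lists holds genes on both sides of 0, from -3.31 for PPARG to 2.38 for EPHX1.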

How the data were processed

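The authors deposited a table of probe intensity on a linear scale, without normalization, with a detection p-value per probe and array, per the file headers, and a table of log2 values. The submitters' processing notes name limma; its version, its steps and a genome build: not given in the sources used here. Of 48202 lines, 887 without a probe identifier were left out. The deposited log2 table held the same 20348 probes and differed from the values computed here by at most 0.0238, so it is log2 and uncentred (column medians 6.257 to 6.262).

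Intensities were passed through neqc of limma 3.58.1 (R 4.3.3), which estimates background from the detection p-values by normexp, adds an offset of 16, quantile-normalizes and takes log2. Of the kept probes 15493 had 1 gene symbol, 4 several and 4851 none in the platform annotation. A gene with no probe listed may still have a kept one among the unnamed probes. Each count of genes with a kept probe therefore covers listed probes only. Among probes with 1 symbol, 15484 matched a current gene by Entrez identifier and 0 symbols changed. The labelled YAP/TAZ status set the arms, which were compared with lmFit and eBayes over all kept probes for the members, and over 11646 genes by their brightest probe for lists and neighbours. The p-values are two-sided, adjusted by Benjamini-Hochberg over all features of the fit and called under 0.05; the fit was tested on simulated data. A probe detected on 0 arrays of an arm gives a bound, computed from arm means with the lowest detected value per array. The bound makes no allowance for the spread between arrays, and fitted values beside it are no bounds. Promoters were aligned with biopython 1.88.

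Members, lists and tests were chosen with earlier results of these data known. Named genes are the members, the targeted genes, up to 6 called genes per list with a log2 change of 1 or more in size, a fixed set (NFE2L2, KEAP1, NQO1, GCLM, HPGD, PTGS2, PTGES, AKR1B15, AKR1D1 and AKR1E2) and the 5 nearest patterns to AKR1C3; KLF6 and NET1 were added by position. Deviations from the arm mean correlated at 0.629, 0.252 and 0.464 between arrays of the same number, above the limit of 0.1 for taking the numbers as pairs; this pairing comes from the data, the labels do not say what a number marks, and knockdown array 2 correlated more with control array 3 (0.377). Alternatives covered background, scaling, filter, probe choice, moderation, the replicate block, the deposited table and leaving out each array. Precision is limited by the number of arrays.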

Additional observations from a re-analysis of the deposited data

How the results depend on the processing

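Without background correction the log2 change of AKR1C3 was 1.93 and that of AKR1C4 0.55, and with normexp on the intensities alone 3.51 and 1.57. Both bounds therefore apply to the planned correction alone, and they make no allowance for the spread between arrays. Leaving out 1 array at a time gave 3.79 to 4.03 for AKR1C3, 1.64 to 1.81 for AKR1C4, 0.23 to 0.46 for AKR1C2 and -0.17 to -0.018 for AKR7A3, with the probes kept as in the full set. AKR7A2 ran from -0.095 to 0.025 and changed sign without knockdown array 1 (0.025, adjusted p = 0.904 in limma). AKR1C2, AKR7A2 and AKR7A3 were called in 0 of the alternatives that could be fitted. AKR1C2, AKR1C3 and AKR1C4 gave no value with detection required on all 6 arrays, nor did AKR1C2 at a detection p under 0.01. The share of probes called was 12.9% with no filter on dim probes. With the array number as a replicate block it was 40.6%, 1 other aldo-keto reductase (AKR1D1) was called higher, and no call of a tested member or other named gene changed. The block gave 11 higher and 9 lower NRF2 genes, 7 and 7 steroid and prostaglandin genes, and 5 and 8 carbonyl and aldehyde genes. With detection on all 6 arrays 0 other aldo-keto reductases were called lower, because the filter removed KCNAB1 and it was not fitted. For steroid and prostaglandin genes 4 were called lower without background correction, where 31.8% of all probes were called. Leaving out 1 array gave 4 to 7 lower both there and among carbonyl and aldehyde genes, where 22.8% to 29.2% of all probes were called. Median scaling over all probes, a setting chosen after seeing the data, called 7.64% of probes. It gave 2 higher and 3 lower carbonyl genes, 2 lower steroid genes, and 3 higher and 1 lower NRF2 genes, and GCLM and NQO1 lost their calls under it (the lost GCLM call at adjusted p = 0.0629). No slide is named in the files, so no slide block was fitted.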
